A study of Sus scrofa with 4 samples.

Results

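The mitochondrial carriers of the SLC25 family were examined in RNA sequencing libraries of porcine oocytes. The members were chosen by name, as the genes whose symbol begins with SLC25A followed by a digit. Of 45 such rows in the deposited table, 41 held values, and these stand among 16050 genes with values in all. SLC25A25, SLC25A34, SLC25A41 and SLC25A45 are listed without values. Oocytes were taken as cumulus-oocyte complexes from pig ovaries collected at a slaughterhouse and matured in vitro for 44 h to metaphase II, either in maturation medium without added Cu (Control) or, for the group labelled Cu, in the same medium with copper sulfate at 25 μg/mL. The study gives this dose and culture time for its experiments in general. The medium of both groups held porcine follicular fluid, EGF, insulin, pyruvate, kanamycin, cysteine, hCG and eCG. Each library was made from 3 pooled oocytes whose transcripts were amplified by Smart-seq2, a method for very small samples, so differences between single oocytes are averaged. The libraries analysed here were Control 1, Control 2, Cu 1 and Cu 3, and values of single libraries follow this order throughout. Nothing in the labels says whether the sets came from separate cultures or animals, so the p-values measure the spread between these libraries, which may be technical.

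The inner mitochondrial membrane is impermeable to most charged metabolites. SLC25 proteins are small carriers in that membrane which exchange or import nucleotides, phosphate, carboxylates, amino acids, cofactors and metal ions between cytosol and matrix. A few members sit in other membranes, such as SLC25A46 in the outer mitochondrial membrane and SLC25A17 in the peroxisome. The ADP/ATP carriers bring ADP to the ATP synthase and export the ATP, and SLC25A3 supplies the phosphate. SLC25A3 is also known to carry copper into the matrix, where it is used to assemble cytochrome c oxidase. Mature oocytes are rich in mitochondria and are largely silent in transcription, so their mRNA is mostly a stored maternal pool.

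The values are FPKM, that is, fragments divided by the length of the transcript and the size of the library, as deposited by the authors. Scaling to length allows only a rough comparison between genes, since capture, amplification and the assignment of reads may differ from gene to gene. Abundance here means FPKM. The number of reads behind the values is unknown. FPKM summed over all genes to between 616082 and 672681 in the 4 libraries. Cu 1 had the most genes at 1 FPKM or more, with 9364 of them against 7923 to 8162 in the other libraries. The cell type label was checked with a list of oocyte genes, of which 11 of 11 had values and passed the filter described further on. Their summed FPKM was 3939 and 5056 in the Control libraries and 7069 and 5470 in the Cu libraries. Of 12 cumulus and granulosa cell genes 7 had values, none reached 1 FPKM in a library, and their summed FPKM lay between 0.48 in Control 1 and 1.27 in Cu 1. HAS2, FSHR, LHCGR, CYP11A1 and FOXL2, which mark those cells, held no value, and AMH was listed at 0 in every library. Of 30684 rows in the deposited table only 16050 held values, so a missing value does not show that a gene was silent. FPKM are relative to library size, so mRNA per oocyte and the number of intact oocytes cannot be read from them or told apart.

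The carriers covered a wide range of levels. The 41 members summed to 786 and 919 FPKM in the Control libraries and to 877 and 811 FPKM in the Cu libraries, which was 0.12% to 0.149% of all FPKM. The Control and Cu libraries overlapped in this sum. The 5 most abundant members, SLC25A5, SLC25A32, SLC25A13, SLC25A51 and SLC25A30, made up 67.2% and 69.3% of it in Control 1 and 2, and 58.2% and 63.8% in Cu 1 and 3. A level of 10 FPKM or more in all 4 libraries at once was reached by 12 of the 41 members (29.3%), against 20% of all genes with values. A further 12 members (29.3%) stayed below 1 FPKM in every library, against 38.9% of all genes. For comparison between groups a gene had to reach 1 FPKM in at least 2 libraries, which 26 members and 8541 genes did, and the 15 members that did not are described at their values only.

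**Figure D1:**
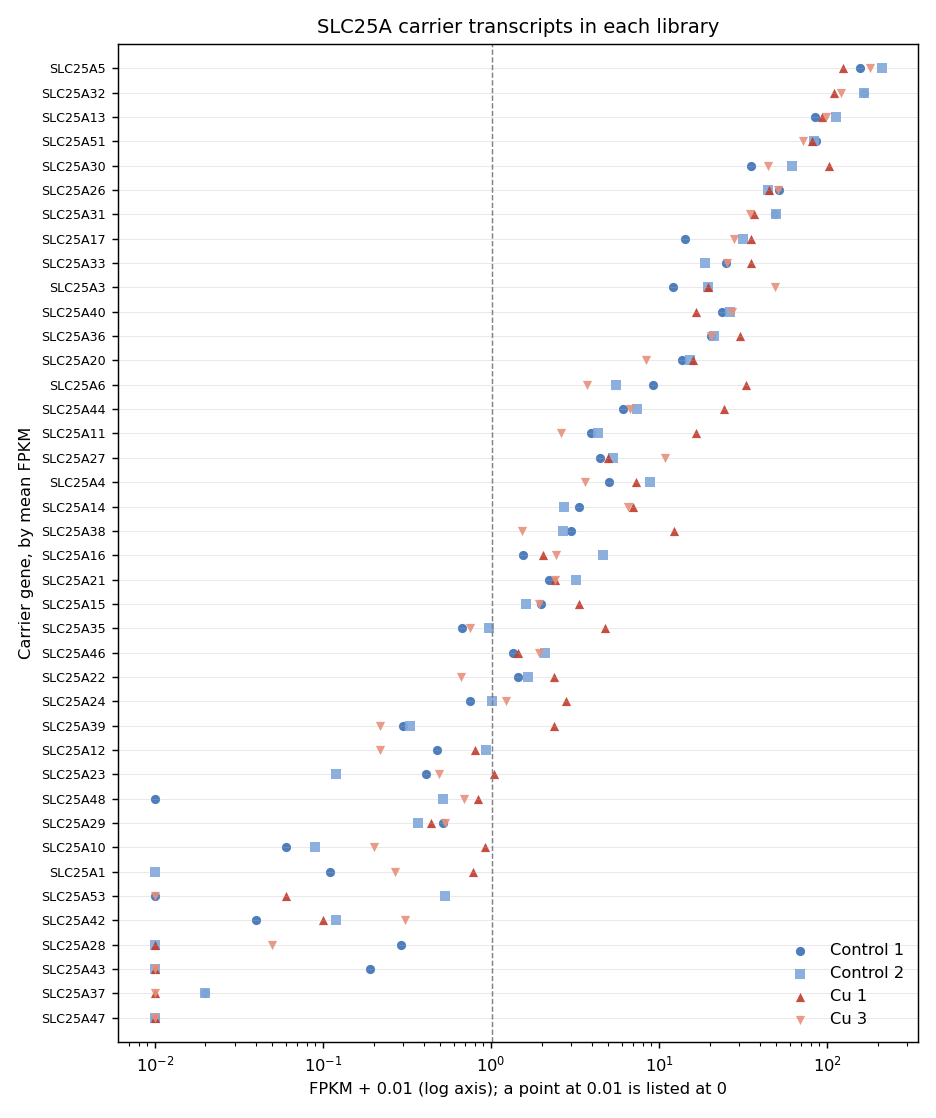
FPKM of 40 of the 41 SLC25A genes with values, on a log axis after adding 0.01, with 1 symbol for each library (blue for Control, red for Cu) and genes ordered by mean FPKM. The dashed line marks 1 FPKM. SLC25A5 is at the top with 124 to 212.5 FPKM, and SLC25A47 at the bottom is listed at 0 in every library.

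No carrier passed an adjusted p of 0.05 between the Cu and Control libraries in limma's moderated test on log2(FPKM + 1). Over all 8541 genes tested 0 passed (0%), with a smallest adjusted p of 0.631, and the smallest among the 26 carriers was 0.656. A single carrier, SLC25A14, had an unadjusted p of 0.05 or less and was higher in Cu, where 599 genes or 7.01% of all tested passed (5.58% higher and 1.43% lower). It did not reach a log2 fold change of 1, which together with that p was passed by 5.03% of all tested genes. The Cu libraries both exceeded the Control libraries in 3 of the 26 carriers, SLC25A14, SLC25A24 and SLC25A33, against 25.4% of all tested genes. Both lay below in 3 others, SLC25A31, SLC25A32 and SLC25A51, against 13.4% of all tested genes. The other 20 carriers overlapped between the groups. These shares are close to, or below, those of all genes and are no result about the family. The smallest p of an exact two-sided permutation test is 0.3333 in this design, so such a test could not pass 0.05.

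The fold changes of the carriers lay between -0.52 for SLC25A32 and 0.96 for SLC25A3, all on the log2(FPKM + 1) scale, which understates the change of weakly expressed genes. Their median was 0.13, and that of all tested genes was 0.16. A log2 fold change above 0 was found in 14 of the 26 carriers, or 53.8%, against 64.3% of all tested genes. Quantile normalization and median-of-ratios scaling shifted the median of all genes by -0.23 and -0.21, to -0.068 and -0.042, so that 44.2% and 46.4% of all genes were above 0. Under either scaling 13 of 26 carriers were above 0, and SLC25A26 alone among them changed its sign. Relative to the median of all genes, the median carrier was at -0.034 without scaling, 0.041 after quantile normalization and -0.028 after median-of-ratios scaling.

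**Figure D2:**
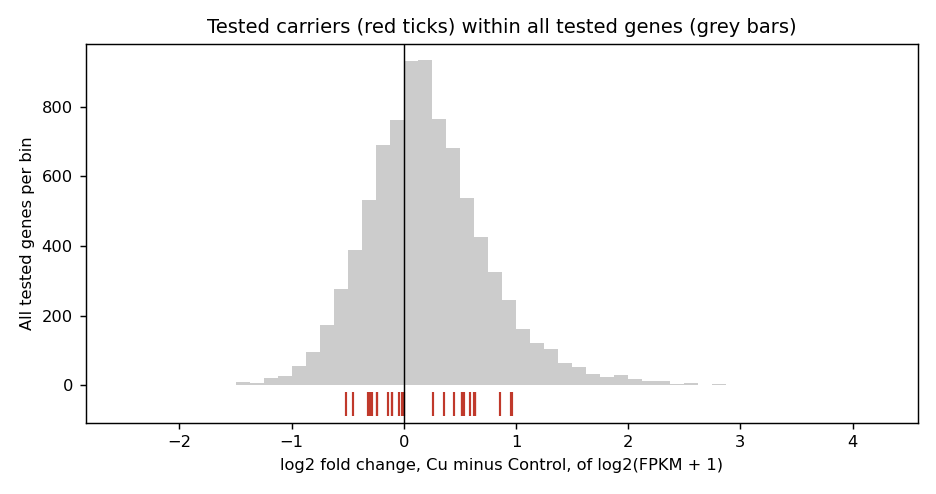
Distribution of the log2 fold change (Cu minus Control, log2(FPKM + 1)) over the 8541 tested genes as grey bars of gene counts, with the 26 tested carriers as red ticks below. The carriers lie between -0.52 and 0.96, inside the range of -2.38 to 4.002 of all tested genes.

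The ADP/ATP carriers are 4 isoforms that exchange ADP and ATP across the inner membrane, and they differ in tissue. SLC25A5, the isoform of growing cells (identifier 100158185), had 156.5 and 212.5 FPKM in the Control libraries and 124 and 181 FPKM in the Cu libraries. It was the most abundant carrier of the family on average, and the groups overlapped. Its log2 fold change was -0.28 (standard error 0.33, 95% interval -1.09 to 0.52, adjusted p = 0.851). SLC25A31 (identifier 100518564), an isoform known from male germ cells, measured 49.2 and 49.5 FPKM in the Control libraries against 36.8 and 34.99 FPKM in the Cu libraries. Here the libraries of each group lay close together, at 49.4 ± 0.23 FPKM for Control and 35.9 ± 1.28 FPKM for Cu (SD, n = 2 each), and the groups did not overlap. The log2 fold change was -0.45 (standard error 0.29, 95% interval -1.17 to 0.27, adjusted p = 0.769).

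SLC25A6, another widely expressed isoform (identifier 403155), had 9.19 and 5.53 FPKM in the Control libraries and 33.1 and 3.72 FPKM in the Cu libraries. Cu 1 was the highest library and Cu 3 the lowest, so the fold change of 0.64 (standard error 0.91) has no common direction in the Cu libraries. SLC25A4, the isoform of heart and skeletal muscle (identifier 100517196), measured 5.06 and 8.88 FPKM in the Control libraries against 7.28 and 3.64 FPKM in the Cu libraries, with a log2 fold change of -0.32 (standard error 0.47). The groups overlapped for both isoforms. In every library the order was SLC25A5 above SLC25A31 above the other two, with SLC25A5 at 3.18 to 5.17 times SLC25A31, while SLC25A6 and SLC25A4 changed places between libraries. SLC25A5 made up 71.2% and 76.9% of the summed FPKM of the 4 isoforms in Control 1 and 2, and 61.7% and 81.0% in Cu 1 and 3. That sum was 220 and 276 FPKM in the Control libraries and 201 and 223 FPKM in the Cu libraries, which overlapped. The isoforms are close paralogs, so the counting may have divided reads between them or their pseudogenes.

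SLC25A3, the carrier of phosphate and copper (identifier 100302698), had 12.04 and 19.7 FPKM in the Control libraries and 19.5 and 48.8 FPKM in the Cu libraries. Cu 3 stood above the others, and Cu 1 lay just below Control 2, so the groups overlapped. The log2 fold change of 0.96 was the largest of the 26 carriers, with a standard error of 0.52, a 95% interval of -0.31 to 2.23 and an adjusted p of 0.728. Without Cu 1 the log2 fold change was 1.6 with an adjusted p of 0.027, and 2.18% of all tested genes then passed an adjusted p of 0.05. Without Cu 3 it was 0.32 with an adjusted p of 0.567. Over all alternatives its adjusted p ranged from 0.027 to 1, so the call depended on the library left out. On average SLC25A3 was the tenth carrier in order of abundance, with 25 FPKM over the 4 libraries.

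**Figure D3:**
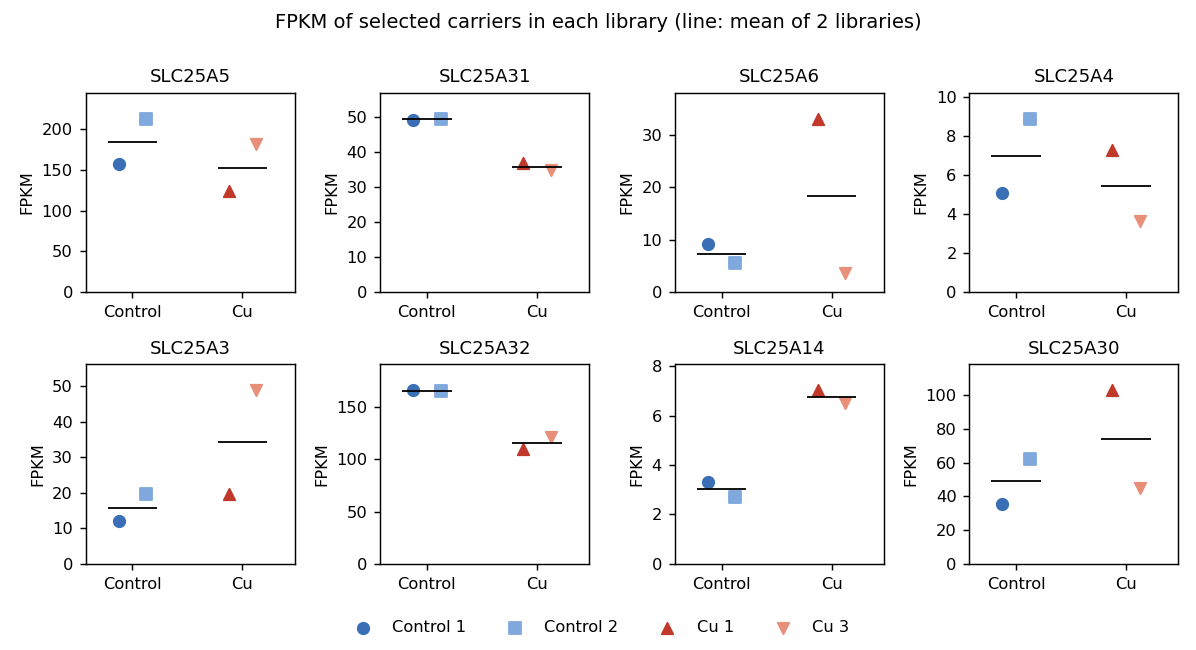
FPKM of 8 carriers in Control 1, Control 2, Cu 1 and Cu 3, each panel on a linear axis from 0, with a line at the mean of the 2 libraries of a group. SLC25A31 and SLC25A32 are lower and SLC25A14 is higher in both Cu libraries, whereas Cu 1 and Cu 3 lie far apart for SLC25A6, SLC25A3 and SLC25A30.

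Carriers of nucleotides and cofactors made up the largest share of the carrier FPKM, with 365 and 369 FPKM in the Control libraries and 339 and 321 FPKM in the Cu libraries over the 9 members with values. SLC25A32, which brings folate into the matrix (identifier 100154544), measured 165.7 and 165.4 FPKM in the Control libraries against 109 and 121 FPKM in the Cu libraries. Both Cu libraries were below both Control libraries, at 115 ± 8.51 FPKM against 166 ± 0.18 FPKM (SD, n = 2 each). The log2 fold change was -0.52 (standard error 0.27, 95% interval -1.17 to 0.13, adjusted p = 0.725), the lowest among the carriers. It stayed between -0.59 and -0.44 when any single library was left out. Since the groups did not overlap, leaving out a library could not reverse the sign of this fold change. SLC25A51, the carrier of NAD+ (identifier 100157218), had 85.9 and 83.0 FPKM in the Control libraries and 81.5 and 71.6 FPKM in the Cu libraries. The groups did not overlap, yet the distance from Control 2 to Cu 1 was smaller than that between the Cu libraries, and the log2 fold change was -0.14 (standard error 0.28). The authors' mean FPKM, which include a further library of each group not analysed here, lay close together, at 80.8 for Control and 79.99 for Cu.

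SLC25A33, a carrier of pyrimidine nucleotides (identifier 100517764), measured 25 and 18.9 FPKM in the Control libraries against 35.3 and 25.4 FPKM in the Cu libraries. The Cu libraries both exceeded the Control libraries, with Cu 3 only slightly above Control 1. The log2 fold change was 0.45 (standard error 0.35). The groups overlapped after either scaling. For SLC25A33 the authors' mean FPKM also lay close together, at 28.5 for Control and 29.03 for Cu. Its relative SLC25A36 lay between 20.3 and 30.4 FPKM with an overlap of the groups. SLC25A26, which imports S-adenosylmethionine, the methyl donor, for reactions in the matrix, ranged from 44.5 to 51.8 FPKM and had a log2 fold change of 0.0016, with a 95% interval of -0.73 to 0.74. The peroxisomal carrier SLC25A17 ranged from 14.2 FPKM in Control 1 to 35.04 FPKM in Cu 1. SLC25A16, linked to coenzyme A, lay between 1.55 and 4.65 FPKM, with both extremes in the Control libraries. SLC25A42, which imports coenzyme A, did not reach 1 FPKM in any library.

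All 3 tested carriers related to the uncoupling proteins had a log2 fold change above 0, also after both scalings, and SLC25A14 alone passed an unadjusted p of 0.05. Above 0 were 64.3% of all tested genes, or 44.2% after quantile normalization and 46.4% after median-of-ratios scaling. Without Cu 1 the log2 fold change of SLC25A30 was -0.070, and without Cu 3 that of SLC25A27 was 0.023. SLC25A14, also called UCP5 (identifier 100525444), had 3.32 and 2.72 FPKM in the Control libraries and 7.02 and 6.50 FPKM in the Cu libraries. The Cu libraries were close together and well above both Control libraries, at 6.76 ± 0.37 FPKM against 3.02 ± 0.42 FPKM (SD, n = 2 each). The log2 fold change was 0.95 (standard error 0.36, 95% interval 0.081 to 1.82), with an unadjusted p of 0.037 and an adjusted p of 0.656. Leaving out any single library, it stayed between 0.84 and 1.06, where no change of sign was possible because the groups did not overlap. The log2 fold change was smaller after quantile normalization, at 0.66, and after median-of-ratios scaling, at 0.75. The unadjusted p was 0.052 without the filter on low values, 0.117 after quantile normalization, 0.077 after median-of-ratios scaling, 0.166 without Control 1 and 0.258 without Control 2. The authors' mean FPKM, which include these libraries and 1 more of each group not analysed here, lay closer together, at 3.93 for Control and 6.02 for Cu.

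SLC25A30 (identifier 100626629), known as a kidney mitochondrial carrier, was the most abundant of this group, with 35.4 and 62.2 FPKM in the Control libraries and 103 and 44.7 FPKM in the Cu libraries. Cu 1 was the highest library and Cu 3 lay between the Control libraries, so the log2 fold change of 0.52 (standard error 0.50) did not separate the groups. SLC25A27, also called UCP4 (identifier 100157774), measured 4.46 and 5.34 FPKM in the Control libraries against 4.98 and 10.8 FPKM in the Cu libraries. Here Cu 3 was the highest library and Cu 1 lay between the Control libraries. UCP1 and UCP3, which belong to the same family under other symbols, held no values, and UCP2 stayed below 1 FPKM in every library.

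**Figure D4:**
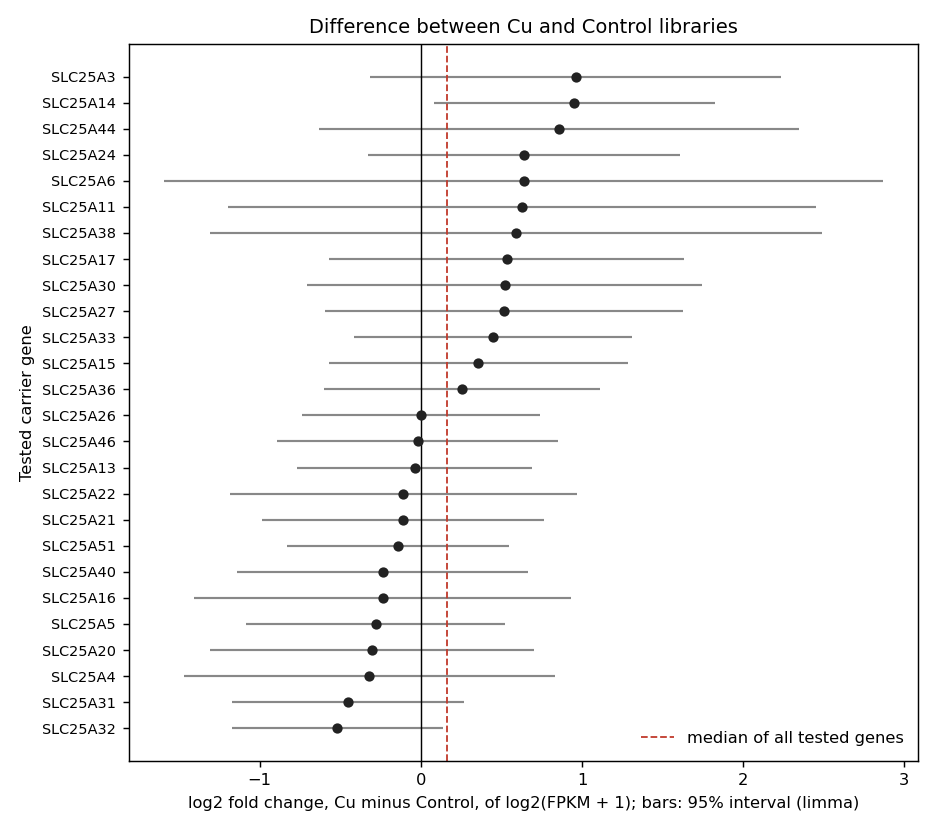
Log2 fold change (Cu minus Control, log2(FPKM + 1)) of the 26 tested carriers as points, with bars for the 95% interval of limma's moderated test, a solid line at 0 and a dashed red line at the median of all tested genes, 0.16. The interval of SLC25A14, from 0.081 to 1.82, is the only 1 of the 26 that does not cross 0.

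Among the amino acid carriers 5 of 7 with values were tested, 3 with a log2 fold change above 0 and 2 below, and the groups overlapped in all 5. SLC25A13, the aspartate/glutamate carrier citrin of the malate-aspartate shuttle (identifier 100524162), had 85.0 and 113 FPKM in the Control libraries and 92.9 and 98.3 FPKM in the Cu libraries. Both Cu libraries lay between the Control libraries, and the log2 fold change was -0.039 (standard error 0.30, 95% interval -0.77 to 0.69). Its paralog SLC25A12 stayed between 0.21 and 0.92 FPKM, so citrin had by far the higher FPKM of this pair. SLC25A44, a carrier of branched-chain amino acids, measured 6.12 and 7.39 FPKM in the Control libraries against 24.5 and 6.69 FPKM in the Cu libraries. SLC25A38, which imports glycine for heme synthesis, had 2.99 and 2.69 FPKM in the Control libraries and 12.2 and 1.51 FPKM in the Cu libraries. For both genes Cu 1 was far above the other 3 libraries. SLC25A15, the ornithine carrier, and SLC25A22, a glutamate carrier, stayed between 0.65 and 3.35 FPKM.

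The di- and tricarboxylate carriers were weakly represented. SLC25A11, the oxoglutarate/malate carrier that is the partner of citrin in the malate-aspartate shuttle (identifier 397390), measured 3.94 and 4.35 FPKM in the Control libraries against 16.5 and 2.61 FPKM in the Cu libraries. Cu 1 was the highest library and Cu 3 the lowest. SLC25A21, a carrier of oxodicarboxylates, lay between 2.2 and 3.19 FPKM. SLC25A1, the citrate carrier, and SLC25A10, the dicarboxylate carrier, did not reach 1 FPKM in any library. SLC25A20, which carries acylcarnitines to the site of fatty acid oxidation, had 13.8 and 15.3 FPKM in the Control libraries and 15.8 and 8.40 FPKM in the Cu libraries, with a log2 fold change of -0.30 (standard error 0.41). Of the ATP-Mg/phosphate carriers, SLC25A24 (identifier 100518780) measured 0.74 and 1 FPKM in the Control libraries against 2.79 and 1.22 FPKM in the Cu libraries. Both libraries with Cu exceeded those without at this low level, and the estimated log2 change was 0.64 (standard error 0.40, adjusted p = 0.756). SLC25A23 had 1.03 FPKM in Cu 1 and 0.11 to 0.48 FPKM elsewhere.

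The carriers of iron were nearly undetected. SLC25A28, mitoferrin-2, had 0.28 FPKM in Control 1, 0.04 FPKM in Cu 3 and was listed at 0 in the other two, and SLC25A37, mitoferrin-1, had 0.01 FPKM in both Control libraries, the smallest value listed, and 0 in both Cu libraries. Of the glutathione carriers, SLC25A40 (identifier 100621546) had 23.8 and 26.5 FPKM in the Control libraries and 16.5 and 27.0 FPKM in the Cu libraries. Cu 1 was the lowest and Cu 3 the highest library, and the log2 fold change was -0.24 (standard error 0.37). Its paralog SLC25A39 measured 0.29 and 0.32 FPKM in the Control libraries against 2.36 and 0.21 FPKM in the Cu libraries, and did not pass the filter. SLC25A46, an outer membrane protein that acts in mitochondrial shape, lay between 1.35 and 2.10 FPKM with a log2 fold change of -0.019. Of the members without a well-established substrate, SLC25A35 had 4.75 FPKM in Cu 1 and 0.66 to 0.96 FPKM elsewhere. SLC25A29, a carrier of basic amino acids, and SLC25A43, SLC25A47, SLC25A48 and SLC25A53 stayed below 1 FPKM throughout.

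The Cu libraries differed from each other more than the Control libraries did. Over the 26 tested carriers the median absolute difference of log2(FPKM + 1) was 0.22 between Control 1 and 2 and 0.56 between Cu 1 and 3, and over all tested genes it was 0.27 and 0.56. A difference of 1 or more was found in 2 carriers between the Control libraries, against 4.75% of all tested genes, and in 7 between the Cu libraries, against 24.7%. Cu 1 was the highest of the 4 libraries in 13 of 26 carriers (50%), against 51% of all tested genes. It was at least 2 times the next library in 5 carriers, or 19.2%, against 14.3% of all tested genes. Without Cu 3, 5 carriers passed an adjusted p of 0.05, namely SLC25A6, SLC25A11, SLC25A30, SLC25A38 and SLC25A44, where 20.5% of all tested genes passed. Without Cu 1 it was SLC25A3 alone. Without either Control library no carrier and none of all tested genes passed (0%). In these fits the lone library of a group is assumed to vary like the other group.

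The other genes of mitochondrial transport, 46 in 9 lists, had 30 tested members. Of these 22 had a log2 fold change above 0 and 8 below, with a median of 0.33, or 16 above and 14 below after either scaling. Of all tested genes 64.3% were above 0, or 44.2% after quantile normalization and 46.4% after median-of-ratios scaling. An unadjusted p of 0.05 was passed by 1 upward and 1 downward, and by 7.01% of all tested genes. COX17, a chaperone that takes part in copper delivery to cytochrome c oxidase, had 65.5 and 112 FPKM in the Control libraries and 742 and 259 FPKM in the Cu libraries. The Cu libraries both exceeded the Control libraries, and the estimated log2 change was 2.34 (standard error 0.55, adjusted p = 0.631). It was the 1 tested gene of 6 on the list for copper delivery to that complex. Carrier proteins reach the inner membrane by the TIM22 route, whose list had 7 tested genes, 5 with a fold change above 0 and 2 below, or 4 and 3 after either scaling. TIMM10B, a small chaperone of this route, measured 332 and 375 FPKM in the Control libraries against 239 and 148 FPKM in the Cu libraries. Both Cu libraries were below both Control libraries, and the estimated log2 change was -0.90 (standard error 0.32, adjusted p = 0.656). TIMM22, the channel of that route, had 3.15 and 5.23 FPKM in the Control libraries and 44.8 and 6.42 FPKM in the Cu libraries, with Cu 1 far above the rest.

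In the remaining lists no gene passed an unadjusted p of 0.05. VDAC3, a pore of the outer membrane, measured 16.7 and 16.9 FPKM in the Control libraries against 79.1 and 20.3 FPKM in the Cu libraries. Both libraries with Cu exceeded those without, as in 25.4% of all tested genes, with Cu 1 far above the rest. The log2 fold change of VDAC3 was 1.22 (standard error 0.63). The other pores of the list were below 0, VDAC1 with 66.4 and 77.8 FPKM in the Control libraries and 60.0 and 48.9 FPKM in the Cu libraries and a log2 fold change of -0.40, and VDAC2 with -0.85. The list thus had 1 gene above 0 and 2 below, with a median of -0.40, also 1 and 2 after either scaling. MTCH2, a member of the carrier family in the outer membrane under its own symbol, had 29.7 and 36.2 FPKM in the Control libraries and 17.5 and 27.9 FPKM in the Cu libraries. Its groups did not overlap, and the log2 fold change was -0.55 (standard error 0.37). The pyruvate carrier subunit MPC1 had a log2 fold change of 0.64 (standard error 0.46), with an overlap of the groups. Its list of 2 genes had 1 above 0 and 1 below, also after either scaling. The malate-aspartate shuttle enzymes GOT1, GOT2, MDH1 and MDH2 lay between -0.26 and 0.15 and overlapped between the groups, with 3 of the 4 above 0 as deposited and 0 of 4 after either scaling. Of the list of calcium uniporter and related genes 6 of 7 tested genes had a fold change above 0 with and without scaling, led by SMDT1 at 0.83 (standard error 0.44). Among all tested genes the share above 0 was 64.3%, or 44.2% after quantile normalization and 46.4% after median-of-ratios scaling. In 3 genes of the list both Cu libraries exceeded both Control libraries, against 25.4% of all tested genes. The 1 gene below 0 was MCU, the pore of the uniporter, with 11.4 and 10.5 FPKM in the Control libraries and 8.29 and 7.10 FPKM in the Cu libraries. Its log2 fold change was -0.46 (standard error 0.35). SFXN2, a sideroflexin from a list with 2 tested genes, had a log2 fold change of 0.44 (standard error 0.49).

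All identifiers of the members were found in the RefSeq table of genes for Sscrofa11.1, the build also named in the submitters' processing notes, and 44 of 45 had a position, on 14 chromosomes. SLC25A5 lies on chromosome X at 97919295 to 97922245, with SLC25A43 next to it at a distance of 12523 bases. The neighbours differed widely in level, since SLC25A43 had 0.18 FPKM in Control 1 and was listed at 0 elsewhere. SLC25A3 lies on chromosome 5 at 85284405 to 85292336, SLC25A32 on chromosome 4 at 33704810 to 33727796, SLC25A31 on chromosome 8 at 97095503 to 97120940 and SLC25A14 on chromosome X at 106828695 to 106859128. All of these are annotated as protein-coding genes.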

How the data were processed

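Per the paper's methods, the authors filtered reads with SOAPnuke, aligned them with HISAT2 and Bowtie2 and calculated expression with RSEM; the submitters' processing notes instead name TopHat2 2.0.13, Cufflinks 2.2.1, Cuffnorm and Cuffdiff and the builds susScr11 and Sscrofa11.1. Which of these made the table was not settled. The deposited values are FPKM with 2 decimals, so no count-based test was run and depth is unknown. The methods describe 3 sets per group. The authors' mean FPKM of each group equal, for 16050 of 16050 genes with values, the mean of the 2 libraries here and 1 further value of whole hundredths, 0 or above, so they include these libraries, are no independent check and support no result. Groups came from the sample titles. Genes were tested if 2 of the 4 libraries or more reached 1 FPKM. Their log2(FPKM + 1) entered limma 3.58.1 under R 4.3.3 (lmFit, then eBayes with its trend option), two-sided, with Benjamini-Hochberg adjustment over all 8541 tested genes; the script was tested on simulated data. A count test had been named for the case that counts were deposited. The members and lists were chosen with earlier results of these data known. Library values are given for SLC25A3, the ADP/ATP, iron and glutathione carriers, the 5 most abundant members, those at an unadjusted p of 0.05, up to 4 members without overlap in each direction and the gene with the smallest p in most lists of other transport genes; SLC25A11, SLC25A20, SLC25A27, SLC25A38, SLC25A44, TIMM22, VDAC1, VDAC2 and MCU, and the single high values of SLC25A23 and SLC25A35, were added after their values were seen. Alternatives were another pseudocount, filters, 2 scalings, no variance trend, an added fold limit and leaving out each library. The single values of 1 member and of 1 other transport gene are not reported here.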

Additional observations from a re-analysis of the deposited data

How the results depend on the processing

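By limma, neither a carrier nor any other tested gene reached an adjusted p of 0.05 with a pseudocount of 0.1, without a filter, with 1 FPKM required in all 4 libraries, after either scaling or without the variance trend, where the smallest adjusted p of a carrier ranged from 0.659 to 0.818. At an unadjusted p of 0.05 there was 1 carrier, and 0 with an added log2 fold change of 1, without a filter, after quantile normalization or after median-of-ratios scaling. That p was passed by 7.01% of all tested genes, and by 5.03% with the added fold change. The share of all tested genes was 5.31% without a filter, 7.56% after quantile normalization and 7.58% after median-of-ratios scaling. Carriers in which the Cu libraries both exceeded the Control libraries numbered 3, or 7 of 40 without a filter. There were 2 after either scaling and 2 of 24 with 1 FPKM required in all 4 libraries. Those with both below numbered 3, or 4 without a filter, 6 after quantile normalization and 5 after median-of-ratios scaling. Among all tested genes the shares above and below were 22.5% and 10.4% without a filter. They were 15.9% and 23.6% after quantile normalization and 17.1% and 22% after median-of-ratios scaling. With 1 FPKM required in all 4 libraries they were 24.4% and 14.5%. The carriers added without a filter had not reached 1 FPKM in 2 libraries. With each library left out in turn, carriers past the adjusted limit ranged from 0 to 5 and past the unadjusted limit from 0 to 8, all tested genes from 0 to 1755 and from 127 to 2958, carriers without overlap from 5 to 13 above and from 4 to 9 below, where all tested genes gave 35.2% to 58.1% and 19.5% to 37.1%, and the carrier median from -0.014 to 0.26. With a library left out, 16 of the 26 tested carriers changed the sign of their log2 fold change, 1 without Control 1, 6 without Control 2, 9 without Cu 1 and 4 without Cu 3. SLC25A11, SLC25A20, SLC25A38 and SLC25A44 were among them, and of the carriers chosen by the rule for library values it changed for SLC25A4 (from -0.74 to 0.098), SLC25A6 (from -0.79 to 2.06), SLC25A13 (from -0.24 to 0.17), SLC25A30 (from -0.070 to 1.11) and SLC25A40 (from -0.58 to 0.10), and the cause was not tested. No paired analysis was possible because the groups share only replicate number 1. FPKM do not keep depth, so how precisely members below 1 FPKM were measured is not known, and the design limits what can be called.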
